A study of Mus musculus with 29 samples.

Results

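The 9 genes described here were listed as surface and secreted markers of resting, or homeostatic, microglia, although Crybb1 encodes a crystallin, best known from the lens. They are Tmem119, Siglech, Selplg, Fcrls, Slc2a5, Olfml3, Sparc, Cst3 and Crybb1, and they were picked by symbol from the 22327 gene symbols of a table of raw counts. All 9 passed the filter on low counts, which kept 16074 genes. Homeostatic microglia are the surveying immune cells of the healthy brain, and many of their markers depend on TGF-beta signalling and on the transcription factors PU.1 and SALL1. Around amyloid plaques microglia are known to take on a disease-associated state, in which genes such as Cst7 and Lpl go up and several homeostatic genes go down. The labels name microglia as the cell type, and some genes of the list, such as Tmem119, are commonly used to tell microglia from other brain macrophages. Sparc and Cst3 are also strongly expressed by astrocytes, and Sparc by endothelial cells.

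Ribosomes carrying a tag were pulled down, a method called TRAP-seq, and their RNA was sequenced from the cortex of mice aged 6 months. There were 29 libraries in 7 groups. In every group 1 allele of Cx3cr1 carried the tamoxifen-dependent Cre recombinase (Cx3cr1CreErt2/+), and all mice received 6 doses of 100 mg/kg tamoxifen. Cre switched on an eGFP-L10a ribosomal protein from the Eef1a1 locus, so that any cell with an active Cx3cr1 promoter, border macrophages included, could carry the tag. The study asked how the integrated stress response, which slows translation when kinases phosphorylate eIF2α (encoded by Eif2s1), shapes microglia with and without amyloid.

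The TRAP group (n = 5) carried the tag alone (Eef1a1LSL.eGFPL10a/+) and received tamoxifen only. The Eif2A group (n = 4) also carried Eif2s1A/A, an allele whose product cannot be phosphorylated, with Tg(Eif2s1). The sample labels give both Eif2A genotypes with the tag, while the series description leaves it out. The 5xFAD transgenes, which are driven by the neuronal Thy1 promoter and give amyloid plaques, were added to Eif2A in the 5xFAD_Eif2A group (n = 3), which received tamoxifen only. They were added to the tag alone in the 5xFAD_TRAP group (n = 4), which unlike TRAP was given VEGF (1 µg/kg) and ASV (asunaprevir, 5 mg/kg) over 4 weeks. The iPKR construct (Eef1a1LSL.NS3.eGFPL10a.iPKR/+) joins the tag to the NS3 protease and to iPKR, an inducible PKR, which is a kinase of eIF2α, and ASV inhibits NS3. Mice with it received VEGF and vehicle (iPKR_vehicle, n = 4), VEGF and ASV (iPKR_ASV, n = 5), or VEGF and ASV with 5xFAD (5xFAD_iPKR, n = 4). TRAP against 5xFAD_TRAP therefore differs in drug as well as in amyloid, and TRAP against iPKR_vehicle differs in construct and VEGF together.

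Library totals ran from 1.662 to 31.998 M counts. Libraries were made in batch 1 (20 libraries) and batch 2 (9 libraries), and all Eif2A and 5xFAD_Eif2A libraries were in batch 1. In 8 libraries (2 of Eif2A, 4 of iPKR_ASV and 2 of 5xFAD_iPKR) the Y-linked reads went against the labelled sex. Whether the sex entry or the library is misplaced is not known, and the group of each library rests on its label. Libraries iPKR_ASV replicate 3, 5xFAD_iPKR replicate 1 and 5xFAD_iPKR replicate 2 held the largest shares of neuron markers, 2.38%, 3.23% and 3.68% of counts, against 0.116% to 0.14% in TRAP. Counts of called markers in comparisons that involve the iPKR groups are therefore given with and without these 3, with TMM factors. Levels, correlations and results set against or scaled to general myeloid genes are given with all libraries only. Levels are CPM (counts scaled to a fixed library total with TMM factors), and fold changes are log2 values with a standard error (SE) from edgeR's quasi-likelihood test with Benjamini-Hochberg adjustment over all 16074 genes, in 1 model of all 29 libraries with batch and labelled sex, at a threshold of 0.05.

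The crystallin gene Crybb1 is the member whose level differed most with amyloid in the groups without iPKR, and it is shown with its neighbour. It lies on mouse chromosome 5 (mm10 chr5:112255815-112269585, plus strand), and Cryba4, another crystallin gene, lies next to it on the minus strand (chr5:112246493-112252518), with 3296 bases between the starts of the 2 genes. Both encode proteins best known from the lens. The bases just before each annotated start are printed because the levels of these neighbours were correlated across libraries, from RefSeq with build GRCm38.p6, 5′ to 3′ on the strand of the gene, with the letters TGCTGAC in capitals.
Crybb1, chr5:112255570-112255814, plus strand: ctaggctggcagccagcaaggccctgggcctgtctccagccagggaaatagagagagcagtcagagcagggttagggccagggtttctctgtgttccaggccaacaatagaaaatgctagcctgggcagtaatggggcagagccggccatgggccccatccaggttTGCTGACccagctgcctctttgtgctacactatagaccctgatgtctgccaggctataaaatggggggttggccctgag
Cryba4, chr5:112252519-112252768, minus strand: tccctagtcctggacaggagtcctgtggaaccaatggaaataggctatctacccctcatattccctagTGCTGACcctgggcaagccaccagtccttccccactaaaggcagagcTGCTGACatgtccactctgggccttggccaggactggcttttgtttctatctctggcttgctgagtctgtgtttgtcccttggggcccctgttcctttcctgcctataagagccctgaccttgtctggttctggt
TGCTGAC is the core of an element known from crystallin gene promoters, and it was chosen after the levels were seen. It occurs once before Crybb1 and 2 times before Cryba4, and on either strand in 3.81% of all 32851 RefSeq promoter windows of 250 bases. Of the 7 members with a promoter entry, 2 hold it, Crybb1 and Sparc. GAGGAA, the core of PU.1 sites, occurs in 23.3% of all windows and in 2 of the 7 members, Fcrls and Cst3. Tmem119 and Selplg have no entry. A match is a string of letters, not a binding site.

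In TRAP the 9 genes together took 3.86% to 6.59% of all counts, most of it from Cst3 at a mean of 42580 ± 11100 CPM. Per kilobase of exon, Cst3, which encodes the secreted protease inhibitor cystatin C, stood first at 33630 ± 8730 CPM per kilobase (SD, n = 5). Sparc, a secreted matrix glycoprotein gene, followed at 1235 ± 330, and Tmem119, a single-pass membrane protein gene, at 1154 ± 160 CPM per kilobase; these 2 did not differ beyond their spread. Next came Fcrls, an Fc receptor-like gene, at 628.7 ± 202, Crybb1 at 577.7 ± 146, the sialic acid-binding lectin gene Siglech at 491.3 ± 84 and the P-selectin ligand gene Selplg at 467.8 ± 93.7 CPM per kilobase. These 4 lay within 1 SD of their neighbours in the order. Olfml3, a secreted olfactomedin-like gene, was at 238.7 ± 59, and the fructose transporter gene Slc2a5 was lowest at 108.9 ± 17.5 CPM per kilobase. The general myeloid genes took 1.29% to 1.59% of counts in TRAP. Exon length was taken over all annotated exons, so genes with long unused exons are understated.

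**Figure D1:**
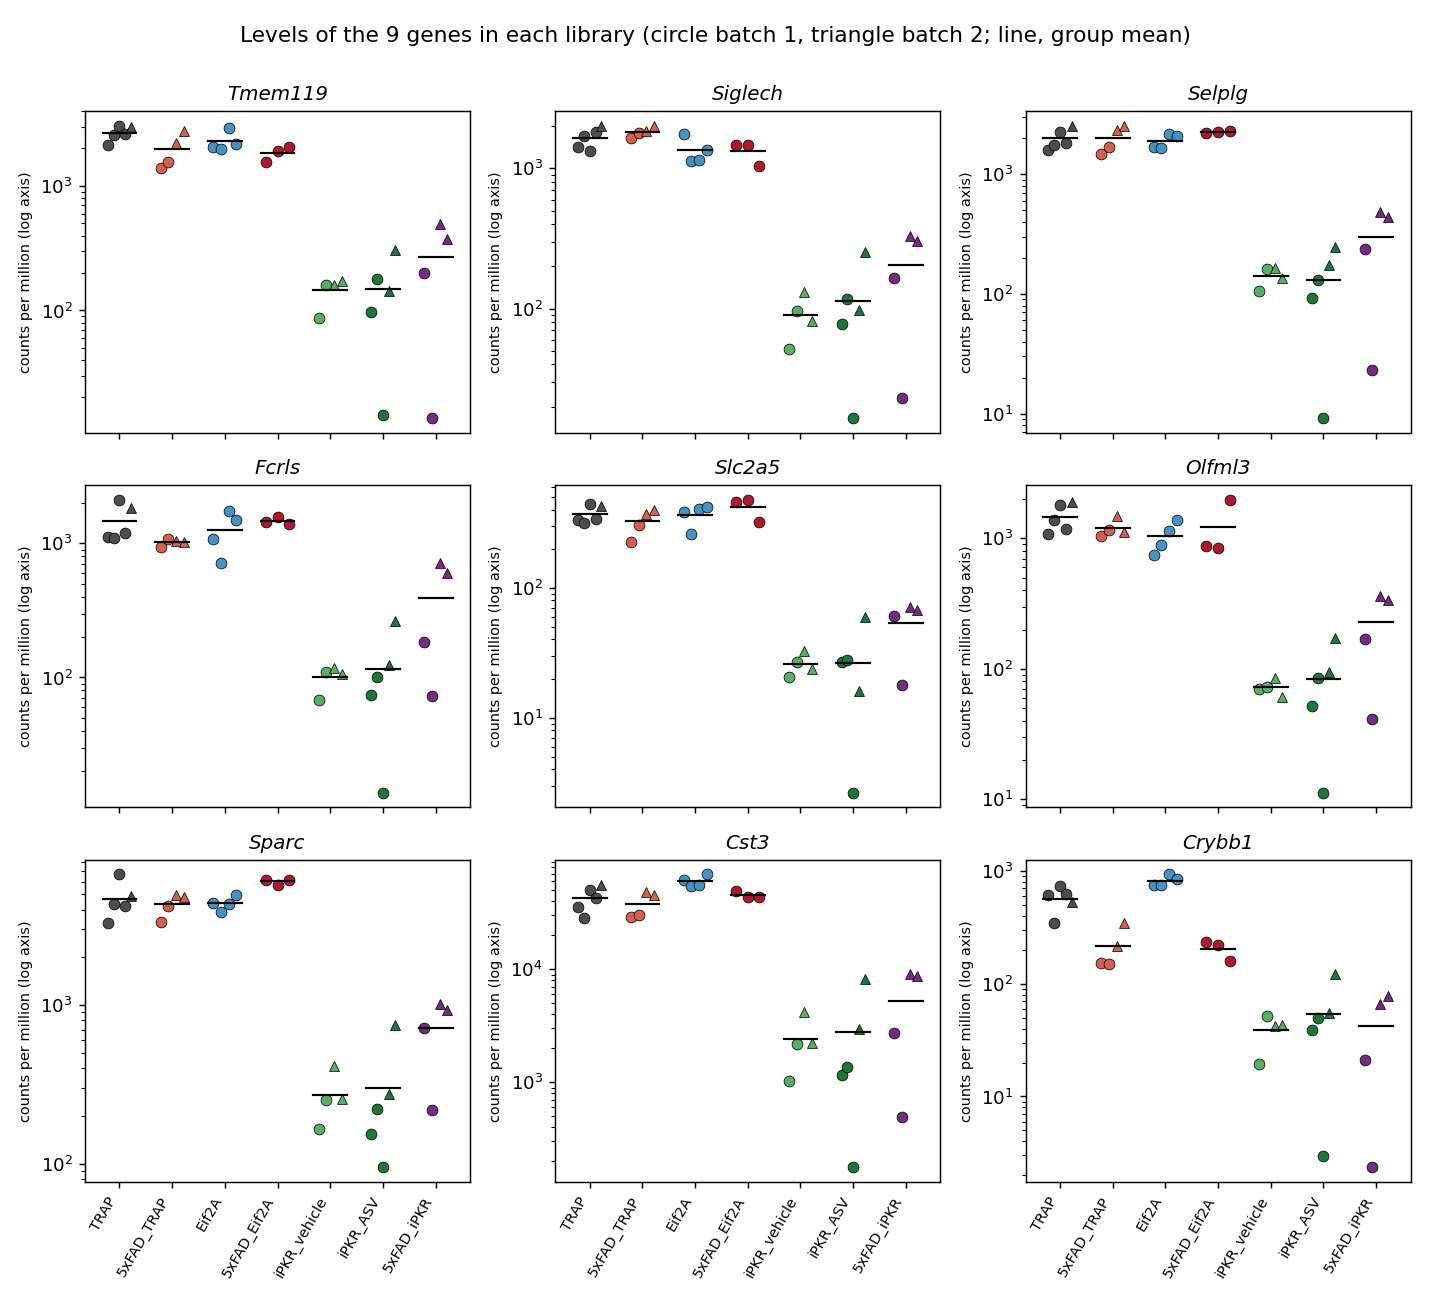
Each panel plots 1 gene, with CPM on a log axis against group; circles are batch 1 libraries, triangles batch 2 libraries, and the line is the group mean. Apart from Fcrls, where 5xFAD_iPKR replicate 3 (718.7 CPM) lies above Eif2A replicate 2 (709.5 CPM), every gene is lower in each of the 13 libraries with iPKR than in any without it. Crybb1 alone parts both pairs of 5xFAD and non-5xFAD groups without iPKR.

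With amyloid on the plain tag, Crybb1 stood furthest from its TRAP level. The ratio of the TRAP mean to the 5xFAD_TRAP mean was 2.64 for Crybb1, 1.44 for Fcrls, 1.35 for Tmem119 and between 0.912 and 1.22 for the other 6. Crybb1 averaged 569 ± 144 CPM in TRAP (SD, n = 5) and 215.4 ± 89.7 CPM in 5xFAD_TRAP (n = 4). The TRAP libraries stood at 616.6, 348.1, 733, 621.1 and 526.2 CPM, and the 5xFAD_TRAP libraries at 153.5, 150.1, 215.8 and 342.2 CPM. The lowest TRAP library lay just above the highest 5xFAD_TRAP library, so that the groups did not overlap. Groups did not overlap in either direction for 5.35% of all genes, and with 5xFAD_TRAP below for 1.95%. The fitted log2 fold change was -1.86 ± 0.55 (95% interval -3.00 to -0.71), and its adjusted p of 0.139 did not pass in the model of all 29 libraries. In a model of the 4 groups without iPKR it was -1.60 ± 0.27 with edgeR adjusted p = 0.001516, and Crybb1 was then called. It was called too when the 3 neuron-rich iPKR libraries alone were left out of the model (-1.56 ± 0.30, edgeR adjusted p = 0.00386), where 1.44% of genes were. Crybb1 was not called in batch 1 alone (-1.95 ± 0.68, edgeR adjusted p = 0.2461). Nor was it called with any 1 library left out (lowest edgeR adjusted p = 0.082). Within batch 1 the means were 579.7 CPM (n = 4) and 151.8 CPM (n = 2), and within batch 2 they were 526.2 CPM (n = 1) and 279 CPM (n = 2).

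Tmem119 was at 2144, 2546, 3056, 2619 and 2996 CPM in TRAP and at 1391, 1548, 2227 and 2740 CPM in 5xFAD_TRAP. The 2 low 5xFAD_TRAP libraries were both from batch 1 and lay below every TRAP library, while the batch 2 libraries overlapped with TRAP. Those batch 1 libraries also had the higher shares of neuron markers, 0.429% and 0.249%, against 0.107% and 0.117% in batch 2, and the part of this in the result was not tested. The log2 fold change was -0.82 ± 0.53 (edgeR adjusted p = 0.6216), and in the model of the 4 groups -0.71 ± 0.16 (edgeR adjusted p = 0.009046).

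None of the 9 markers was called in the model of all 29 libraries for this comparison, against 0.79% of all genes called in either direction, and all 9 fold changes were below 0 in the model of all libraries (Siglech was at 0.08 in that of the 4 groups), from -1.86 to -0.07 with a median of -0.50 (-0.06 over all genes). In the model of the 4 groups 2 of the 9 were called, both lower, against 6.94% of its 13800 genes in either direction and 2.84% lower. Fcrls was at 1112, 1090, 2108, 1194 and 1834 CPM in TRAP and at 941.5, 1074, 1036 and 1022 CPM in 5xFAD_TRAP. Its groups did not overlap, but the gap between the lowest TRAP and the highest 5xFAD_TRAP library was small beside the spread within TRAP, and its log2 fold change of -0.70 ± 0.46 was not called (edgeR adjusted p = 0.6276). Siglech was nearly level, at 1662 ± 284 CPM in TRAP and 1822 ± 142 CPM in 5xFAD_TRAP (log2 fold change -0.07 ± 0.45). The 95% interval of Siglech, -1.002 to 0.862, leaves room for a change of either sign. Selplg was at 1999 ± 400 and 2017 ± 508 CPM, and Sparc at 4678 ± 1250 and 4325 ± 731 CPM, both overlapping. The means of Siglech and Selplg were thus not lower in 5xFAD_TRAP, unlike their fitted values, which include terms for batch and labelled sex. Border macrophage markers took 0.0178% to 0.0571% of counts in TRAP and 0.0218% to 0.0237% in 5xFAD_TRAP, with medians of 0.0482% and 0.0224%. All 9 of these markers had fold changes below 0 (median -1.12, lowest -2.06) with none called, none was at 0 in any of these libraries, and their part in the levels of the markers was not tested.

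Against this, genes of the plaque response changed widely in the same libraries. Of 18 listed plaque-response genes 16 were called higher, among them the lipoprotein lipase gene Lpl (5.07 ± 0.49) and the cystatin F gene Cst7 (5.34 ± 0.55). The median log2 fold change of the 18 was 3.02. Of 19 other homeostatic genes tested none was called, with a median of -0.15 and values from -0.78 to 0.49.

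On the Eif2A background the members split: Crybb1 was 4-fold lower with amyloid, while Tmem119, Siglech, Fcrls, Olfml3 and Slc2a5 overlapped between the groups. Crybb1 was at 743.7, 745.1, 932 and 844.8 CPM in Eif2A and at 233.8, 221 and 157.7 CPM in 5xFAD_Eif2A. The 2 groups stood well apart, with means of 816.4 ± 90.4 and 204.2 ± 40.8 CPM. Groups did not overlap for 21.1% of all genes in this comparison, all of whose libraries were in batch 1. The log2 fold change was -2.001 ± 0.60 (edgeR adjusted p = 0.06533) and in the model of the 4 groups -2.01 ± 0.26 (edgeR adjusted p = 7.507e-05). Crybb1 was called in batch 1 alone, too (-2.01 ± 0.57, edgeR adjusted p = 0.04869), and without the 3 neuron-rich iPKR libraries (-1.98 ± 0.32, edgeR adjusted p = 0.0002222), where 5.2% of genes were. It was not called with any 1 library left out of the model of all libraries (lowest edgeR adjusted p = 0.08959).

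Sparc was higher and Cst3 lower with amyloid on Eif2A. Sparc was at 4392, 3851, 4347 and 4930 CPM in Eif2A and at 6136, 5747 and 6190 CPM in 5xFAD_Eif2A. Cst3 was at 61570, 55010, 55740 and 69400 CPM in Eif2A and at 49630, 43290 and 43380 CPM in 5xFAD_Eif2A. Neither pair of groups overlapped. In the model of all libraries Sparc had a log2 fold change of 0.51 ± 0.38 (edgeR adjusted p = 0.6025) and Cst3 of -0.38 ± 0.58 (edgeR adjusted p = 0.8543). In the model of the 4 groups they passed narrowly, Sparc at 0.50 ± 0.15 (edgeR adjusted p = 0.02994) and Cst3 at -0.38 ± 0.13 (edgeR adjusted p = 0.04889). Astrocyte markers took 0.0454% to 0.0731% of counts in Eif2A and 0.0321% to 0.042% in 5xFAD_Eif2A, and their part in the result was not tested.

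None of the 9 markers was called on Eif2A in the model of all libraries, against 3.1% of all genes, and 3 of 9 in the model of the 4 groups (1 higher, 2 lower), against 15.1%. Selplg was at 1660 to 2192 CPM in Eif2A and 2221 to 2309 CPM in 5xFAD_Eif2A without overlap, and was not called in either model. Of the 18 plaque-response genes 17 were called higher (median 3.55). The difference between the 5xFAD effects on Eif2A and on the plain tag was itself tested. It was -0.15 ± 0.77 for Crybb1 (95% interval -1.75 to 1.45), and for the other 8 between 0.07 and 0.96. None of the 9 was called, by edgeR in the model of all libraries, in the model of the 4 groups or by DESeq2, against 0.00622%, 0.304% and 0.517% of all genes.

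Without amyloid, Eif2A and TRAP had similar levels of the 9 markers, with Cst3 and Crybb1 at the upper end. Cst3 was at 35660, 28270, 50500, 42680 and 55760 CPM in TRAP, and the 4 Eif2A libraries overlapped only with the highest of these. Crybb1 was higher in every Eif2A library than in any TRAP library, as was the case for 2.86% of all genes, with 3.89% not overlapping in either direction. No gene passed the test in the model of all libraries (0% called), where Crybb1 was at 0.67 ± 0.49 and Cst3 at 0.75 ± 0.51. In the model of the 4 groups, in which 1.97% of genes were called and 1.75% higher, Cst3 was called higher at 0.57 ± 0.11 (edgeR adjusted p = 0.01491). With amyloid, 5xFAD_Eif2A and 5xFAD_TRAP, which differ in drug and in batch too, gave 0 of 9 calls in both models, against 0.168% and 4.25% of genes. In a model of these 2 groups alone 5 of 9 were called, all higher, against 9.06% of its genes in either direction and 5.66% higher: Sparc, Cst3, Fcrls, Selplg and Tmem119. All 5xFAD_Eif2A libraries were in batch 1, so that model took its batch term from the 5xFAD_TRAP libraries alone. The mean of Tmem119 was in fact lower in 5xFAD_Eif2A, at 1843 ± 249 against 1977 ± 625 CPM, with overlap. Siglech was lower in 5xFAD_Eif2A without overlap, at 1043 to 1474 CPM against 1649 to 1992 CPM. Fcrls and Sparc were higher without overlap, Fcrls at 1395 to 1568 CPM against 941.5 to 1074 CPM. Groups did not overlap for 13% of all genes there.

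**Figure D2:**
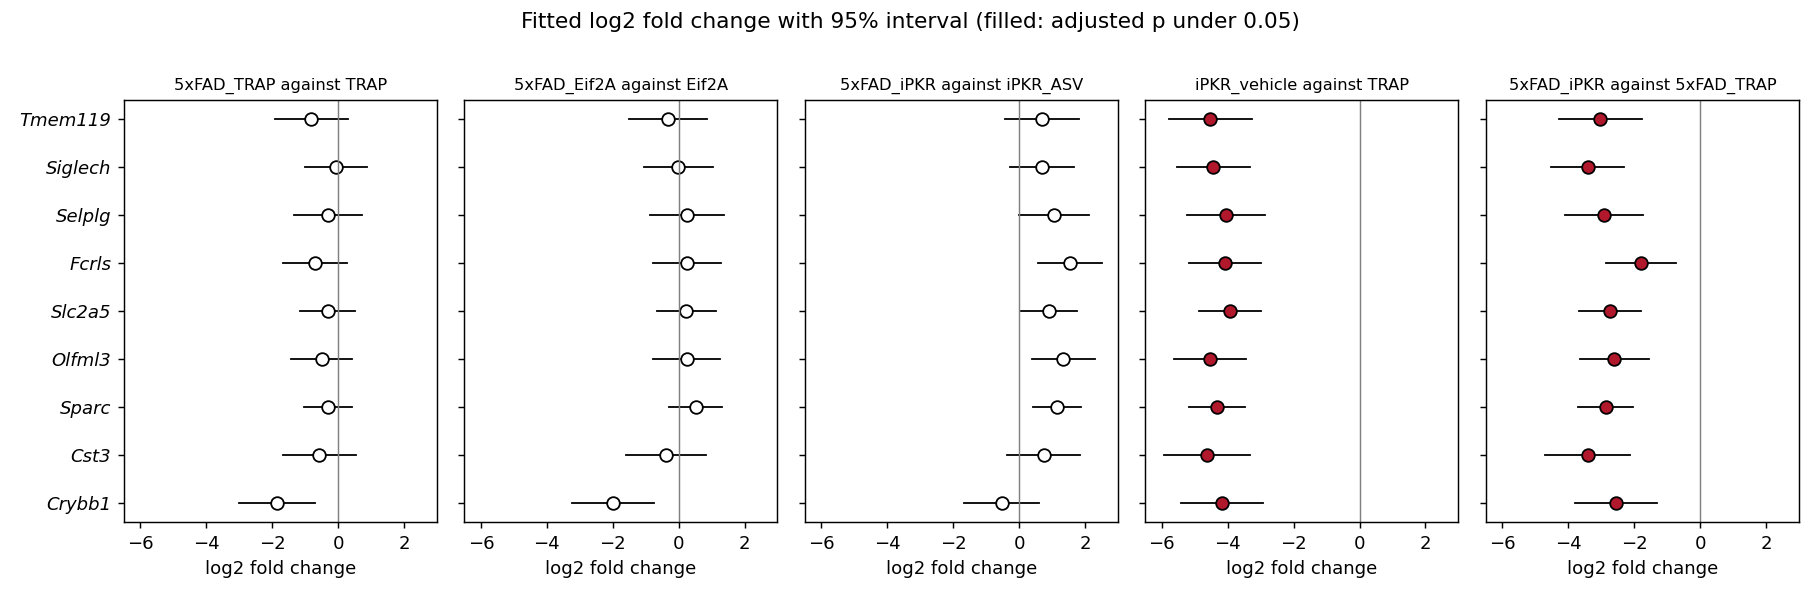
Points are fitted log2 fold changes of the 9 genes in 5 comparisons, with 95% intervals as lines; filled points passed at an adjusted p under 0.05. Crybb1 has the lowest point in both 5xFAD comparisons without iPKR, and all 9 points are filled in the 2 comparisons of iPKR with plain tag.

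All 9 markers fell in both comparisons of iPKR with the plain tag, together with RNA of myeloid cells in general. This comparison shares its TRAP libraries with that of 5xFAD_TRAP, and so does Eif2A against TRAP. In iPKR_vehicle against TRAP the log2 fold changes ran from -4.64 for Cst3 to -3.93 for Slc2a5, a 14.1-fold to 20.5-fold difference of the means. Tmem119 stood at 86.49, 160.2, 161.2 and 174 CPM in iPKR_vehicle, where the lowest TRAP library was at 2144 CPM. Its log2 fold change was -4.52 ± 0.61 (edgeR adjusted p = 5.23e-07). Sparc stood at 164.6, 250.3, 411 and 256.8 CPM, against 3305 to 6678 CPM in TRAP. Siglech was at 51.89 to 132.2 CPM, Fcrls at 67.79 to 118.6 CPM, Olfml3 at 61.17 to 84.3 CPM and Selplg at 104.9 to 164.4 CPM. Cst3 was at 1034 to 4212 CPM, Crybb1 at 19.53 to 52.06 CPM and Slc2a5 at 20.64 to 32.59 CPM. No marker overlapped with its TRAP libraries. All 9 were called lower, where edgeR called 25.4% of all genes lower and 54.1% in either direction, and groups failed to overlap for 48.6%, with iPKR_vehicle below for 23.8%. Neither group holds a neuron-rich library of those 3, and in the model without them all 9 were again called lower, with 52.5% of genes called.

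All 15 general myeloid genes fell, with a median of -4.30 beside -4.33 for the 9 markers and 0.17 for all genes. The integrin gene Itgam was among them at -3.94 ± 0.24. Of the 19 other homeostatic genes 18 fell, with a median of -3.87, among them the receptor gene Csf1r (-3.93 ± 0.29). Neuron markers took 0.795% to 0.87% of counts in iPKR_vehicle, against 0.116% to 0.14% in TRAP, and all 11 rose. The part of these shares in the result was not tested. Astrocyte markers took 0.149% to 0.215%, against 0.0575% to 0.0729%. In bulk RNA of this kind, fewer tagged cells and less RNA per cell cannot be told apart.

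**Figure D3:**
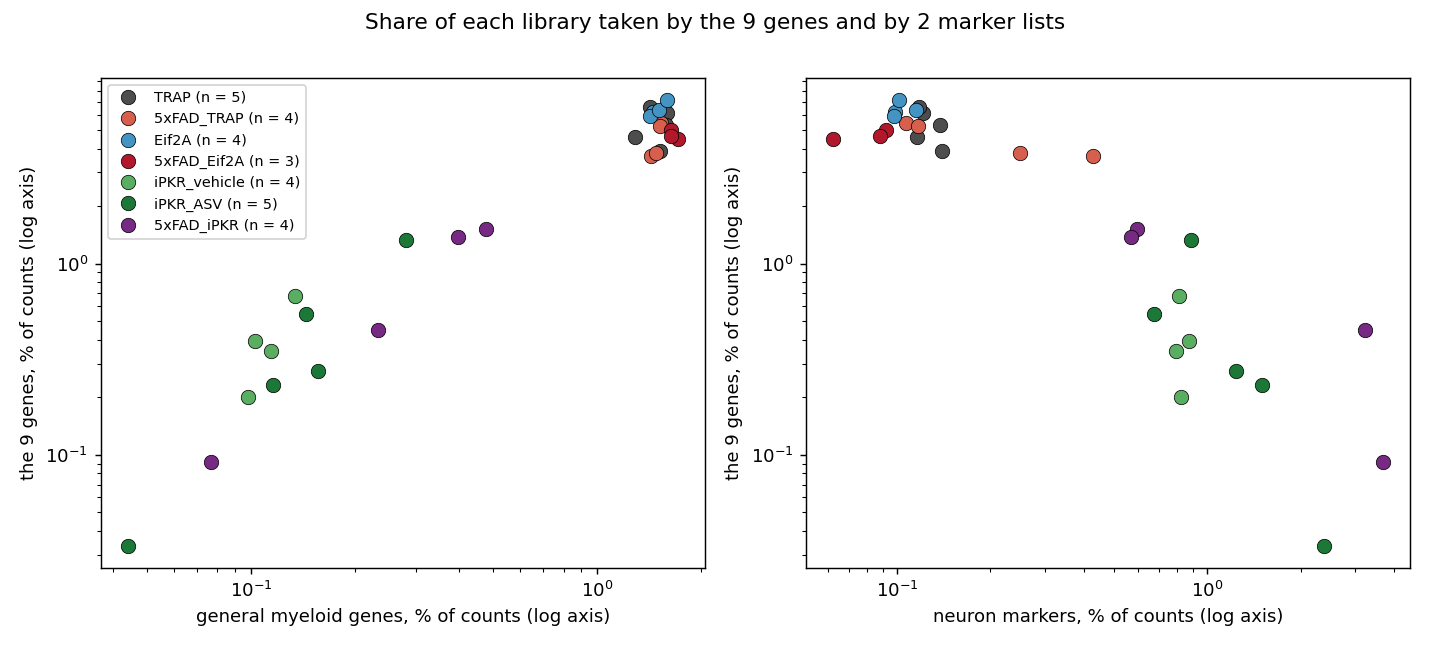
Each point is 1 library, with the percentage of counts in the 9 genes against that in 15 general myeloid genes (left) or 11 neuron markers (right), on log axes. Libraries with iPKR lie low on both the 9 genes and the myeloid genes, and high on the neuron markers. Cst3 has the highest mean CPM of the 9 genes in every group and weighs most in their share.

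Set against the mean of 15 general myeloid genes in the same library, the markers were at about the same level in iPKR_vehicle and TRAP. The difference on the log2 scale lay between -0.10 (Olfml3) and 0.41 (Selplg) for all 9, and every pair of groups overlapped. Tmem119 was at 2.12 ± 0.26 in iPKR_vehicle and 2.13 ± 0.20 in TRAP, and Crybb1 at 0.19 ± 0.37 and -0.14 ± 0.41. Against the 19 other homeostatic genes the markers were lower in iPKR_vehicle, by differences from -0.80 to -0.29. When counts were scaled to these myeloid genes in the model, none of the 9 was called, while the median of all genes moved to 4.57 and 91.7% of genes were called.

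No change of the markers with ASV was detectable in iPKR mice. In iPKR_ASV against iPKR_vehicle the log2 fold changes ran from -0.22 (Selplg) to 0.32 (Crybb1) and none of the 9 was called, against 0.423% of all genes. All 9 overlapped between the groups, where 3.43% of all genes did not. Without replicate 3 and the other 2 neuron-rich libraries the fold changes ran from 0.10 (Selplg) to 0.65 (Crybb1), again with none called, against 1.64% of genes. With myeloid scaling none was called either, against 0.0124%. The iPKR_ASV libraries were uneven. Tmem119 was at 96.83, 178.9, 14.43, 144.1 and 306 CPM, with replicate 3 lowest for all 9 markers. The 95% interval for Tmem119 was -1.08 to 1.08 on the log2 scale.

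Among iPKR mice given ASV, 8 of the 9 markers had fold changes above 0 with amyloid and Crybb1 did not. Fcrls averaged 115 ± 92.2 CPM in iPKR_ASV (SD, n = 5) and 393.8 ± 313 CPM in 5xFAD_iPKR (n = 4). The iPKR_ASV libraries were at 74.04, 100.6, 13.84, 123.8 and 262.6 CPM and the 5xFAD_iPKR libraries at 184.7, 72.8, 718.7 and 599.1 CPM. The 2 highest were the batch 2 libraries of 5xFAD_iPKR, and the groups overlapped. Log2 fold changes were 1.53 ± 0.47 for Fcrls (edgeR adjusted p = 0.09507), 1.34 ± 0.45 for Olfml3 (0.1472) and 1.16 ± 0.35 for Sparc (0.09253). Crybb1 was at 38.56, 49.82, 2.946, 54.42 and 121.7 CPM and at 20.93, 2.368, 65.88 and 78.14 CPM, with full overlap and a log2 fold change of -0.53 ± 0.54.

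None of the 9 was called in the model of all 29 libraries, against 1.72% of genes, and all 9 overlapped between the groups, where 2.46% of genes did not. Without the 3 libraries richest in neuron markers 5 of the 9 were called, all higher, against 4.28% of genes in either direction and 3.97% higher: Fcrls (1.94 ± 0.32, edgeR adjusted p = 0.0004818), Olfml3 (1.58 ± 0.33), Selplg (1.28 ± 0.23), Sparc (1.15 ± 0.32) and Tmem119 (1.01 ± 0.29). Crybb1 was at -0.14 ± 0.36 in that fit. General myeloid genes were called higher alongside, 11 of 15 there and 2 of 15 with all libraries. With all libraries all 15 had fold changes above 0, with a median of 0.88 beside 0.89 for the 9 markers. Of the 19 other homeostatic genes 18 were above 0 with all libraries. There 5 were called higher, among them Csf1r (1.49 ± 0.25), and 11 were called higher without the 3. Against the myeloid level Fcrls differed by 0.71 and Crybb1 by -1.60 in 5xFAD_iPKR on the log2 scale, with overlap and no test. With counts scaled to the myeloid genes Crybb1 was called lower (-1.58 ± 0.42, edgeR adjusted p = 0.01863) and no other member was called, against 19% of genes in either direction and 18.9% lower. The difference of the 5xFAD effect on iPKR from that on the plain tag was above 0 for all 9, from 0.77 to 2.24, with none called in the model of all libraries, against 0.0373% of genes. It was also above 0 for all 15 general myeloid genes (median 1.116), every border macrophage marker (median 1.857) and 17 of 19 other homeostatic genes (median 1.125). The 9 markers had a median of 1.36. Without the 3 libraries, 4 of the 9 were called higher, Fcrls among them at 2.45 ± 0.42, against 1.63% of genes. On the iPKR side both groups received ASV, and on the plain-tag side 5xFAD_TRAP did and TRAP did not.

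**Figure D4:**
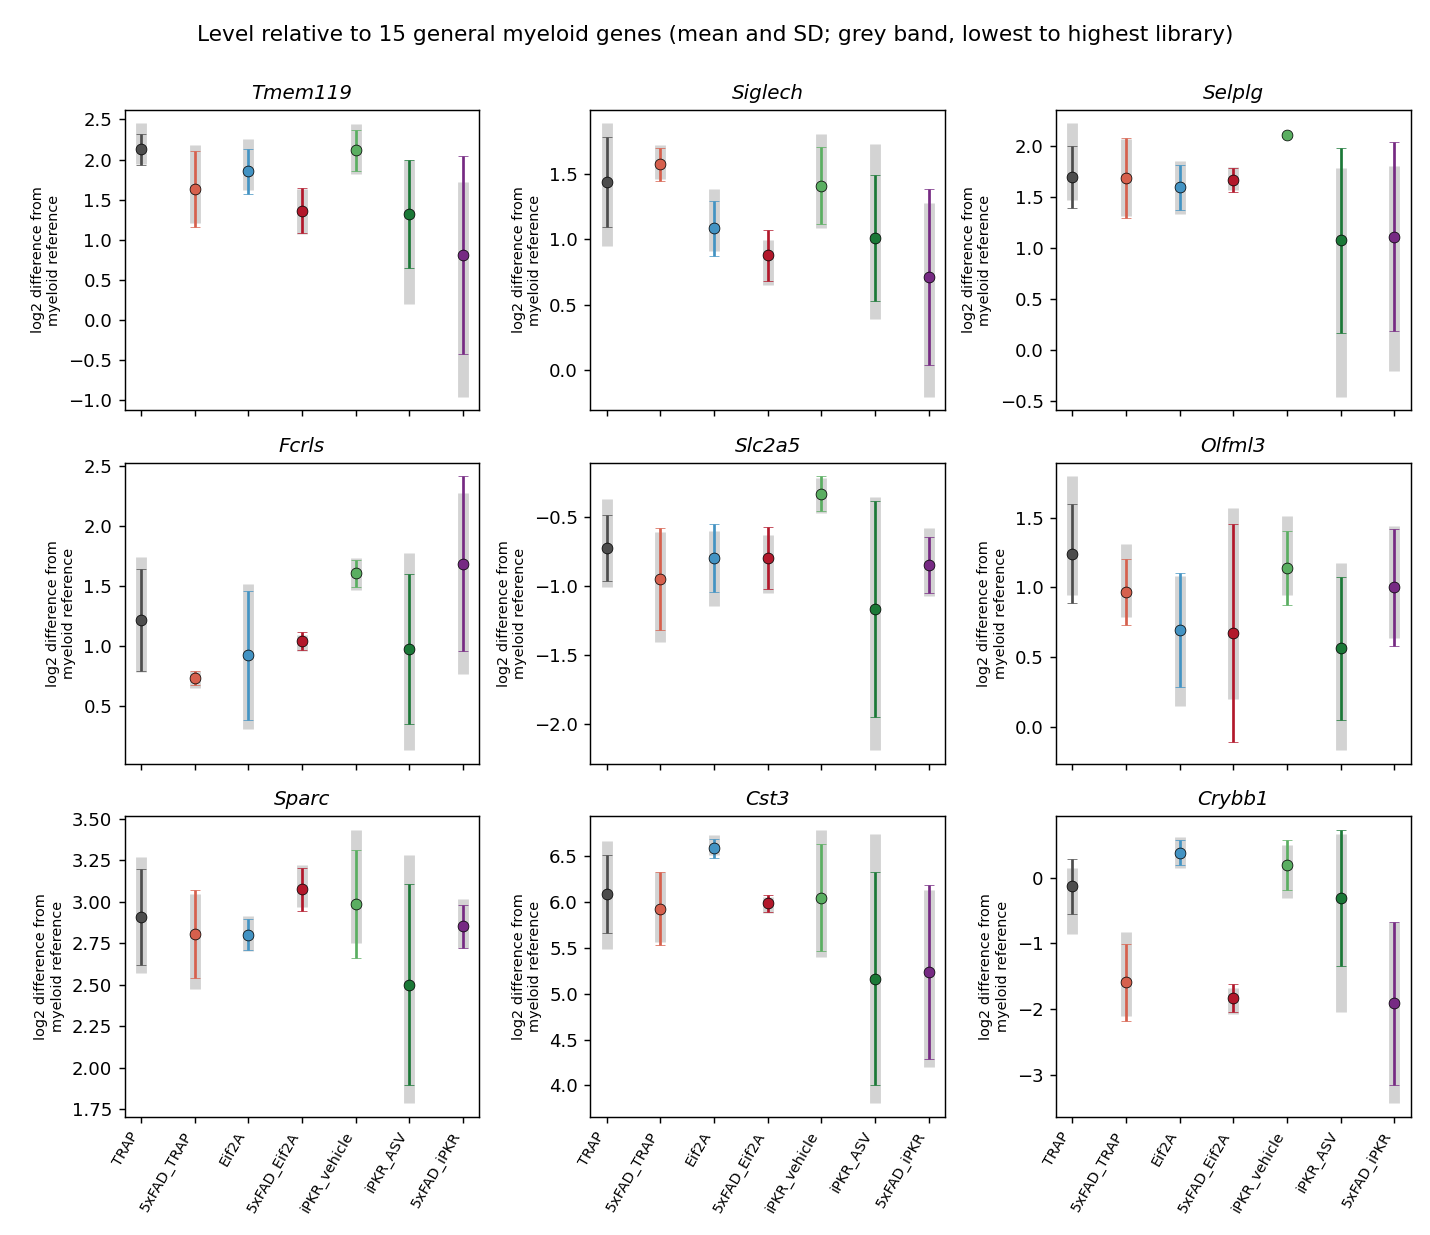
Each panel shows 1 gene's log2 level relative to 15 general myeloid genes by group, with the mean as a point, the SD as a bar and the lowest to highest library as a grey band. The mean of Crybb1 differs by -1.46, -2.204 and -1.60 with 5xFAD on the plain tag, Eif2A and iPKR, and the means of the other 8 genes differ by at most 0.71 in these comparisons.

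Between amyloid mice, 5xFAD_iPKR was far below 5xFAD_TRAP for all 9 markers, at log2 fold changes from -3.41 for Cst3 to -1.79 for Fcrls. All 9 were called lower, where edgeR called 23% of all genes lower and 47.9% in either direction. Groups did not overlap for any of the 9, against 42% of all genes in either direction and 22.1% with 5xFAD_iPKR below. Without the 3 libraries rich in neuron markers all 9 were still called lower, from -2.85 for Siglech to -1.04 for Fcrls, against 17.5% of genes lower and 37.6% in either direction. In group means Fcrls had the smallest fold, 2.59-fold, and Siglech the largest, 8.88-fold. Relative to myeloid RNA Siglech differed by -0.86 without overlap between the groups and Fcrls by 0.95 with overlap. Siglech lay at -0.205 to 1.273 in 5xFAD_iPKR and at 1.459 to 1.718 in 5xFAD_TRAP. With counts scaled to the myeloid genes, Fcrls was called higher (0.98 ± 0.36, edgeR adjusted p = 0.0161) and Siglech lower (-0.84). The other 7 were not called, against 81.8% of all genes. These relative and scaled results include the neuron-rich replicates 1 and 2 of 5xFAD_iPKR and were not repeated without them. Replicate 2 held only 39 counts of Siglech.

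Crybb1 was followed most closely by Ncaph, a condensin subunit gene, and by Cryba4. Over the 16 libraries without iPKR, which share groups and batches, Pearson's r of log2 CPM with Crybb1 was 0.956 for Ncaph, 0.951 for Cryba4 and 0.927 for Cib1. After the mean of each group was taken away it was 0.835 for Ncaph, 0.929 for Cryba4 and 0.652 for Cib1. Cryba4 was at 98.39, 76.85, 130.1, 107.3 and 101.4 CPM in TRAP and at 38.71, 31.78, 51.03 and 70.77 CPM in 5xFAD_TRAP. It was at 144.3 to 154 CPM in Eif2A and at 53.06 to 82.06 CPM in 5xFAD_Eif2A. Cryba4 was chosen for its likeness to Crybb1 over these same libraries, so its levels are a description. Its test in the model of all libraries gives no separate support. There it was not called in 5xFAD_TRAP against TRAP (-1.347 ± 0.475, edgeR adjusted p = 0.2654). Nor was it called in 5xFAD_Eif2A against Eif2A (-1.138 ± 0.497, edgeR adjusted p = 0.2625).

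**Figure D5:**
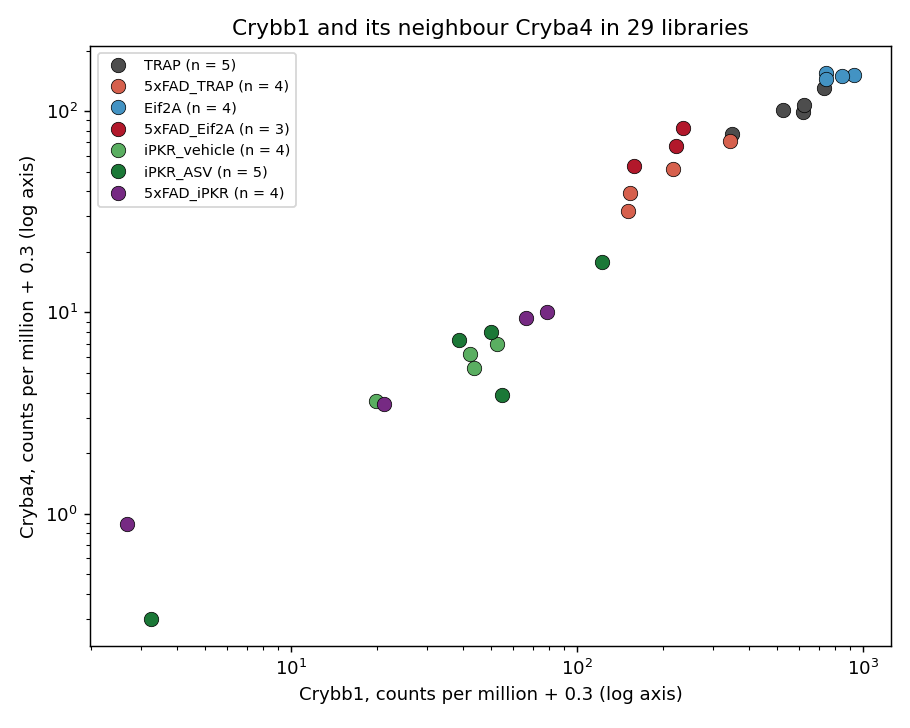
Each point is 1 library, with Cryba4 against Crybb1 in CPM (0.3 added) on log axes. Without iPKR, the mean of each gene is lower in 5xFAD_TRAP than in TRAP and in 5xFAD_Eif2A than in Eif2A, while single libraries of 5xFAD_Eif2A and TRAP overlap for Cryba4.

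The 9 markers were loosely tied to each other without iPKR and closely with it. Over the 36 pairs of members, Pearson's r of log2 CPM had a median of 0.37 (lowest -0.24, highest 0.77) in the 16 libraries without iPKR. It had a median of 0.902 (lowest 0.593) in the 13 libraries with iPKR, whose shares of myeloid RNA ranged from 0.0442% to 0.476% of counts. Among 13108 candidate genes, the one closest to Selplg over the 16 libraries was the complement gene C1qc (r = 0.915), followed by Stard3 (0.898) and Pld4 (0.897). Tmem119 was close to Csmd1 (0.858) and Phtf1 (0.848), and for Siglech the closest was Slc44a5 (0.815), then Phkb (0.783) and Nwd2 (0.781). Fcrls was closest to Cd59b (0.782, at a mean of only 0.252 CPM), Ms4a6d (0.779) and Ptdss2 (0.776), and Olfml3 to the thyrotropin receptor gene Tshr (0.894, at a mean of only 0.205 CPM), Zfp13 (0.839) and Hs6st1 (0.817). Sparc was closest to Dazap2 (0.884), Yif1a (0.854) and Lpcat2 (0.853). Slc2a5 was closest to Trp53i13 (0.88), U2af1l4 (0.848) and Orai1 (0.812), and Cst3 to Uqcc3 (0.919), Ptpn18 (0.919) and Rnf5 (0.916). None of these nearest genes was a member or one of the other homeostatic genes. The libraries share groups and batches. Batch was called for Cst3 and Sparc and not for the other members, where 18.2% of all genes were called. Cst3 was 1.497 ± 0.391 higher in batch 2 (edgeR adjusted p = 0.01011) and Sparc 0.75 ± 0.25 higher (edgeR adjusted p = 0.0384). The members not called were higher in batch 2 as well, from 0.481 ± 0.291 for Slc2a5 to 1.069 ± 0.393 for Crybb1. Their edgeR adjusted p ran from 0.05624 (Fcrls) to 0.2587 (Slc2a5). Labelled sex gave no call among the 9 and none over all genes. Since the Y-linked reads went against the label in 8 libraries, this cannot show that sex had no effect.

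The other members are placed as follows in mm10, each annotated as a protein-coding gene with no other gene overlapping its exons. Tmem119 (chr5:113793729-113800516, minus strand) and Selplg (chr5:113818536-113832644, minus strand) are neighbours on chromosome 5, 18019 bases apart. Siglech lies at chr7:55768178-55778925 (plus), Fcrls at chr3:87250758-87263738 (minus), Olfml3 at chr3:103722222-103738001 (minus) and Sparc at chr11:55394500-55423183 (minus). Slc2a5 lies at chr4:150119283-150144169 (plus) and Cst3 at chr2:148871722-148875692 (minus).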

How the data were processed

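Ribosome-bound RNA from 29 mouse cortex libraries was available as raw counts per gene symbol, deposited by the authors. Per the submitters' processing notes, Trim Galore, HISAT2 2.2.1, featureCounts 2.0.3 and mm10 were used. The gene annotation and strand setting of the counting are not given in the sources used here, so reads of overlapping antisense genes could not be told apart. Per the labels' protocols, libraries were made with a SMART-Seq mRNA LP kit after pulldown with GFP antibodies. A deposited table of RPKM values was not used.

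Counts were analysed in R 4.3.3 with edgeR 4.0.16 and limma 3.58.1. filterByExpr (minimum count 10, minimum total 15) kept 16074 of 22327 genes. The quasi-likelihood model had group, batch and labelled sex over all 29 libraries with TMM factors. Intervals are 95%. It was tested on simulated data. Replicates are separate libraries, and where nothing ties them to separate animals the p-values measure the spread between libraries. Totals per library ran from 1.662 to 31.998 M counts, and no 2 libraries of a group were copies (at most 4.46% equal nonzero counts).

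Alternatives were RLE factors, DESeq2 1.42.0, no low-count filter, no sex term, only the groups compared, batch 1 alone, the 4 groups without iPKR, scaling to the general myeloid genes, no neuron-rich libraries, a replicate block, and each library left out. Sex read from Y-linked genes, and DESeq2 on the 4 groups, were chosen after seeing the data.

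The members and gene lists were chosen with earlier results of these data known. All 9 members were tested in every comparison, though not each of them is named in every one. From another list up to 4 genes are named, by smallest p, or by highest mean level where none was called. The 3 genes with the highest correlation to each member are named too. Some genes that these rules select are not reported here. Cryba4 was followed up because it was 1 of those and lies next to Crybb1, and the promoter motifs were chosen after values were seen. Same-numbered libraries did not deviate together (correlations from -0.462 to 0.188), so the replicate numbers pair no samples. Exon lengths and positions are from GENCODE on mm10, and promoter sequences from RefSeq on GRCm38.p6.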

Additional observations from a re-analysis of the deposited data

Results flagged for a closer look

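Among 54 groups of 4 or 5 libraries, 2 held a library whose distance from the nearest other was large for the spread of its group by Dixon's test. Chance alone gives about 1 in 20. Tmem119 was at 86.49 CPM in iPKR_vehicle replicate 1, below the next library at 160.2 CPM. Sparc was at 746.6 CPM in iPKR_ASV replicate 5, above the next at 276.2 CPM.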

How the results depend on the processing

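In the model of all libraries no marker was called in any comparison except iPKR_vehicle against TRAP and 5xFAD_iPKR against 5xFAD_TRAP, with 9 of 9 each. For 5xFAD_TRAP against TRAP, DESeq2 and the fit without the 3 neuron-rich libraries each called 1 marker (Crybb1, lower; 2.11% and 1.44% of all genes called), while the fit of only the groups compared, that of the 4 groups and DESeq2 on the 4 groups each called 2 (Crybb1 and Tmem119, lower; 6.12%, 6.94% and 11.6%). For 5xFAD_Eif2A against Eif2A, RLE factors, DESeq2, batch 1 alone, myeloid scaling and leaving out the 3 libraries each called 1 (Crybb1, lower; 3.32%, 6.44%, 4.73%, 0.348% and 5.2%). Only the groups compared, the 4 groups and DESeq2 on the 4 groups each called 3 (Crybb1 and Cst3 lower, Sparc higher; 12.9%, 15.1% and 18.6%). For 5xFAD_iPKR against iPKR_ASV, DESeq2 called 3 (4.55% of all genes), no sex term 2 (2.39%), Y-linked sex 1 (2.05%) and the fit without the 3 libraries 5 (4.28%), all higher, while myeloid scaling called 1 (Crybb1, lower; 19%). Leaving out 1 library gave 0 to 4, with 4 without 5xFAD_iPKR replicate 2 (2.94%) and 1 without iPKR_ASV replicate 5 (1.65%). For Eif2A against TRAP the 4 groups and DESeq2 on them each called 1 (Cst3, higher; 1.97% and 5.69%). For 5xFAD_Eif2A against 5xFAD_TRAP, only the groups compared called 5 (Sparc, Cst3, Fcrls, Selplg and Tmem119, all higher; 9.06% of all genes called) and DESeq2 on the 4 groups 2 (Selplg and Cst3, higher; 8.94%). The difference of the 5xFAD effect on iPKR from that on the plain tag had 1 call by DESeq2 (Fcrls; 0.735%), 4 without the 3 libraries (1.63%) and 0 to 1 when 1 library was left out (Fcrls, without 5xFAD_iPKR replicate 2; 0.642%). The cause of these differences was not tested.

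Myeloid scaling moved the median of all genes to 4.57 in iPKR_vehicle against TRAP, to 3.10 in 5xFAD_iPKR against 5xFAD_TRAP and to -1.07 in 5xFAD_iPKR against iPKR_ASV. It left 0 and 2 of the 9 called in the first and second of these, where Fcrls (0.206), Sparc (0.043), Slc2a5 (0.337), Selplg (0.212) and Crybb1 (0.057), and then Fcrls (0.976), Olfml3 (0.074) and Slc2a5 (0.075), changed sign, since the reference genes fell with the markers. Over all genes, 127 were called for 5xFAD_TRAP against TRAP in the model of all libraries, against 958 in that of the 4 groups and 339 by DESeq2. For 5xFAD_Eif2A against Eif2A they were 499, against 2090 and 1034. For Eif2A against TRAP they were 0, against 272 and 41. For 5xFAD_iPKR against iPKR_ASV they were 277, against 10 with only the groups compared, 674 by DESeq2, 739 without the 3 libraries and 3062 with myeloid scaling. The replicate block, with numbers that pair no samples, gave 0 calls for 5xFAD_TRAP against TRAP (Crybb1 -1.86) and changed no count of calls among the markers.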
